A study of Rattus norvegicus with 3 samples.

Results

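Midkine, pleiotrophin, the syndecans and the glypicans were examined in cultured tendon stem/progenitor cells (TSPCs) from the Achilles tendon of post-natal rats. There were 3 arrays in the study, 1 for each age, from cells of rats aged 1 day (TSPCs-1d), 7 days (TSPCs-7d) and 56 days (TSPCs-56d), with no further treatment and no genetic change named in any group. Each culture held cells of at least 2 animals and was used at passage 2 in low-glucose medium with fetal bovine serum, so the arrays describe expanded cells and not tendon tissue. A single array per age gives no measure of the variation between cultures, so every difference below lacks a replicate and no test was made. Values are named by the age of the rats, so that a signal at 7 days is that of TSPCs-7d. The 9 genes *Mdk*, *Ptn*, *Sdc1*, *Sdc2*, *Sdc3*, *Sdc4*, *Gpc1*, *Gpc3* and *Gpc4* were found through every probe set (a group of short probes for a transcript) that the platform table assigns to a single gene of that name. They were carried by 15 of 20826 such probe sets, or 9 of 14217 genes. These genes were chosen from results of these same arrays, and the values that chose them were their signals in the 3 cultures, so the differences below are a description.

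Midkine and pleiotrophin form a small family of secreted, heparin-binding growth factors that are abundant in the embryo and act on growth, migration and survival of cells. They bind the sulfated sugar chains of cell surface proteoglycans and signal through receptors such as the phosphatase PTPRZ1, the kinase ALK, LRP1 and integrins. Syndecans cross the membrane and glypicans are tied to it by a lipid anchor, and both families carry heparan sulfate chains that hold growth factors near their receptors.

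*Mdk* had the largest difference between ages among the 9 genes, and it was the one gene past the 2-fold cutoff with all of its signals above the dim level of 48.9. This level is the 25th percentile of all signals, and differences between signals that both lie under it were not read. Probe set signals in these arrays are linear intensities. The signal of *Mdk* was 670.1 at 1 day, 317 at 7 days and 67.3 at 56 days. It was thus lower at each step, by 2.11-fold in TSPCs-7d vs. TSPCs-1d and 4.71-fold in TSPCs-56d vs. TSPCs-7d, and 9.95-fold lower at 56 days than at 1 day. The size of the later difference depends on a signal near the dim level, and with all signals under the median of 110.1 raised to it, *Mdk* was 2.88-fold lower in TSPCs-56d than in TSPCs-7d and 6.09-fold lower than in TSPCs-1d. Among all 20826 probe sets, 12 had a lower ratio than *Mdk* in TSPCs-56d vs. TSPCs-1d, 20 in TSPCs-56d vs. TSPCs-7d and 172 in TSPCs-7d vs. TSPCs-1d. Of the 20826 probe sets, 23 were more than 2-fold lower at each step, and *Mdk* was the 1 member among them. *Mdk* was also among the 14 of these that were not dim on any array, out of 16137 such probe sets. The ranks above also count probe sets with dim signals. *Mdk* is represented by 1 probe set, so no second probe set of the same arrays can be set beside it. In a bulk culture, fewer cells of a type and less RNA per cell cannot be told apart.

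The other ligand gene, *Ptn*, encodes pleiotrophin, which is known from nervous tissue and growing cartilage. Its single probe set was dim on all 3 arrays, with signals of 28.9 at 1 day, 29.5 at 7 days and 10.8 at 56 days. The ratio of 0.37 in TSPCs-56d vs. TSPCs-1d lies between a pair of dim signals, and no fold change was read from it.

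**Figure D1:**
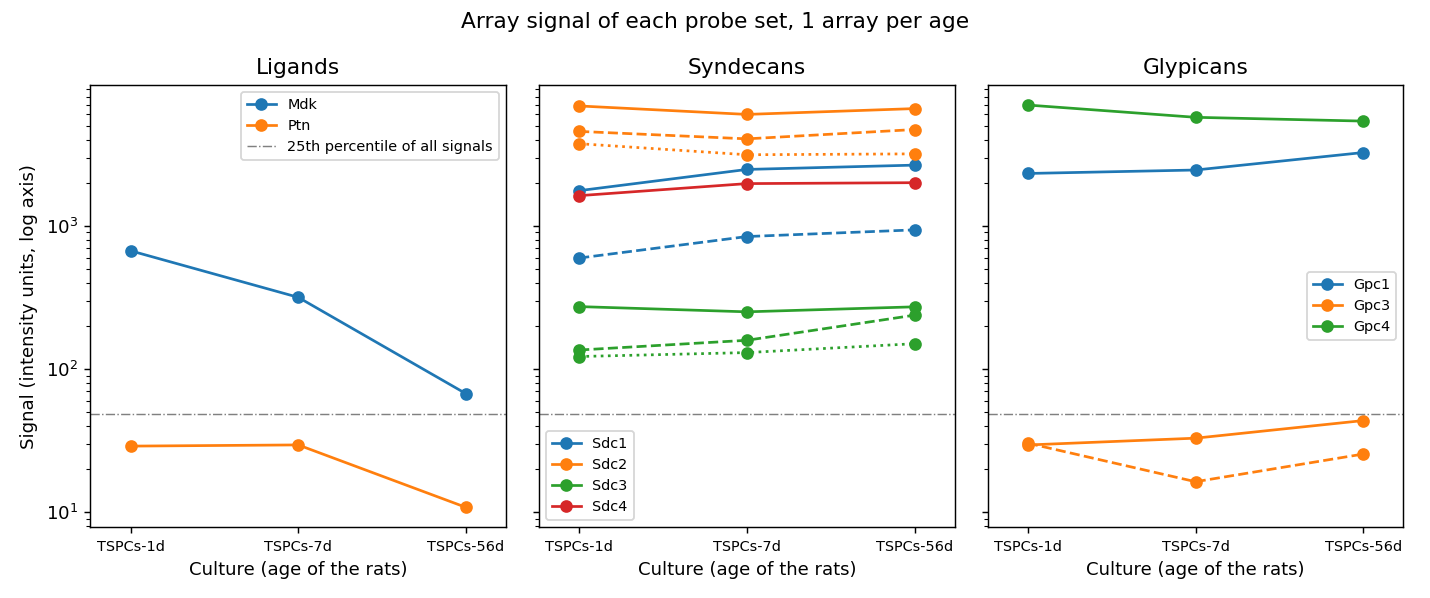
Array signal (intensity units, log axis) of each probe set of the 9 genes at 1, 7 and 56 days, 1 point per array and 1 line per probe set, with broken lines for further probe sets of a gene and a grey line at the dim level of 48.9. The line of *Mdk* descends to 67.3 in TSPCs-56d, *Ptn* and *Gpc3* lie under the grey line throughout and each of the other lines spans at most 1.75-fold; heights of different probe sets are not comparable.

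Syndecan-1, known best from epithelia and plasma cells, was the syndecan with the steadiest difference. The probe set of *Sdc1* with the highest mean signal had 1763 at 1 day, 2479.65 at 7 days and 2658 at 56 days, and the weaker one had 596, 842 and 938. The ratios of both probe sets were nearly the same. In TSPCs-7d vs. TSPCs-1d they were 1.41 and 1.41, in TSPCs-56d vs. TSPCs-7d 1.07 and 1.11, and in TSPCs-56d vs. TSPCs-1d 1.51 and 1.57. None of these reached 2-fold, and most of the difference lay between TSPCs-7d and TSPCs-1d.

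*Sdc2* encodes the syndecan typical of mesenchymal cells, and its 3 probe sets were bright and nearly level. They had 6884, 6008 and 6598 at 1, 7 and 56 days for the brightest, 4572, 4055 and 4712 for the next, and 3751, 3140.4 and 3185 for the third. All of them were lowest in TSPCs-7d, with ratios over TSPCs-1d of 0.87, 0.89 and 0.84. In TSPCs-56d vs. TSPCs-1d the ratios were 0.96, 1.03 and 0.85, and the probe sets thus lay on both sides of 1.

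*Sdc3*, a syndecan of the nervous system and of developing muscle and cartilage, had probe sets that disagreed. The brightest had signals of 273 at 1 day, 251 at 7 days and 272 at 56 days, which gives a ratio of 1.00 between TSPCs-56d and TSPCs-1d. The next had 136, 159 and 238, or 1.75-fold higher at 56 days than at 1 day, and the third had 122, 130.3 and 150.3, or 1.23-fold higher. Their log2 ratios in TSPCs-56d vs. TSPCs-1d spanned 0.81. For comparison, 10% of 1714 genes with exactly 2 well-measured probe sets (each with a mean over the arrays above the median) had a pair of log2 ratios that differed by more than 0.53. A span over 3 probe sets tends to exceed the difference within a pair, so these values are not like for like. No level change of *Sdc3* was given, since the brightest probe set was level and the others were higher at 56 days.

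*Sdc4* encodes the syndecan that joins integrins at focal adhesions. It had signals of 1626 at 1 day, 1974 at 7 days and 2004 at 56 days in 1 probe set. The ratio was 1.21 in TSPCs-7d vs. TSPCs-1d, 1.01 in TSPCs-56d vs. TSPCs-7d and 1.23 in TSPCs-56d vs. TSPCs-1d. Of the 9 probe sets of the 4 syndecan genes, 0 passed 2-fold in any of the 3 comparisons.

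Among the glypicans, *Gpc4* and *Gpc1* were bright, with ratios on opposite sides of 1. *Gpc4* had signals of 6985 at 1 day, 5735 at 7 days and 5396 at 56 days, with ratios of 0.82 in TSPCs-7d vs. TSPCs-1d and 0.77 in TSPCs-56d vs. TSPCs-1d. *Gpc1*, a glypican that binds fibroblast growth factors, had 2324, 2457 and 3254. Its ratio was 1.06 in TSPCs-7d vs. TSPCs-1d, 1.32 in TSPCs-56d vs. TSPCs-7d and 1.40 in TSPCs-56d vs. TSPCs-1d. Each gene is represented by 1 probe set, and neither reached 2-fold.

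*Gpc3* encodes the glypican whose loss in humans causes an overgrowth syndrome. Both of its probe sets were dim on all 3 arrays. One had signals of 29.5 at 1 day, 32.9 at 7 days and 43.6 at 56 days and the other 30.3, 16.3 and 25.5, and they moved in opposite directions in TSPCs-7d vs. TSPCs-1d. A difference of *Gpc3* between ages was not detectable at these signals.

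Counted over the 15 probe sets of all 9 genes, 0 were more than 2-fold higher and 1 (*Mdk*) was more than 2-fold lower in the comparison of TSPCs-7d vs. TSPCs-1d, whereas 1.60% and 1.01% of the 20826 probe sets with a single gene were higher and lower. In TSPCs-56d vs. TSPCs-7d, 0 were higher and 2 lower, beside 1.45% and 1.92% of all. In TSPCs-56d vs. TSPCs-1d, 0 were higher and 2 lower, beside 1.70% and 1.74% of all. The second probe set in both cases was the dim one of *Ptn*. At a lower cutoff of 1.5-fold, 0 were higher and 2 lower in TSPCs-7d vs. TSPCs-1d, beside 4.37% and 3.44% of all, and 1 was higher and 2 lower in TSPCs-56d vs. TSPCs-7d, beside 5.09% and 4.90%. In both comparisons the probe set that this cutoff added was the weaker one of *Gpc3*, dim on all arrays. In TSPCs-56d vs. TSPCs-1d, 3 were higher (both of *Sdc1* and 1 of *Sdc3*) and 2 lower, beside 6.38% and 4.61%. Leaving dim signals aside, 12 probe sets of 7 genes were measured in each comparison. Their median log2 ratio was -0.02, 0.13 and 0.17 in the order above, and that of the 20826 probe sets was 0.01, 0.04 and 0.05. As the genes were chosen on these arrays, nothing is read from these shares.

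How far the probe sets of a gene lie apart was used to judge single ratios, though it says nothing of the variation between cultures. In the comparisons in the same order, 10% of the 1714 pairs of probe sets differed by more than 1.31-fold, 1.36-fold and 1.44-fold. Of the 12 probe sets, 3 were farther than this from a ratio of 1 in TSPCs-7d vs. TSPCs-1d (*Mdk* and both of *Sdc1*), beside 14.5% of all probe sets without a dim signal. There were 2 in TSPCs-56d vs. TSPCs-7d (*Mdk* and 1 of *Sdc3*), beside 15.9%. In TSPCs-56d vs. TSPCs-1d there were 4 (*Mdk*, both of *Sdc1* and 1 of *Sdc3*), beside 11.8%. The guide comes from probe sets with a mean signal above the median, whereas these shares also cover weaker ones, so they are not like for like. The ratios of *Sdc2*, *Sdc4*, *Gpc1* and *Gpc4* lay within the guide in all 3 comparisons. On these single arrays, neighbouring ages of *Mdk* lay farther apart than the guide at both steps, and for *Sdc1* only TSPCs-7d and TSPCs-1d did, with TSPCs-1d the lowest. The 3 comparisons share arrays, and the last is the product of the first and the second.

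**Figure D2:**
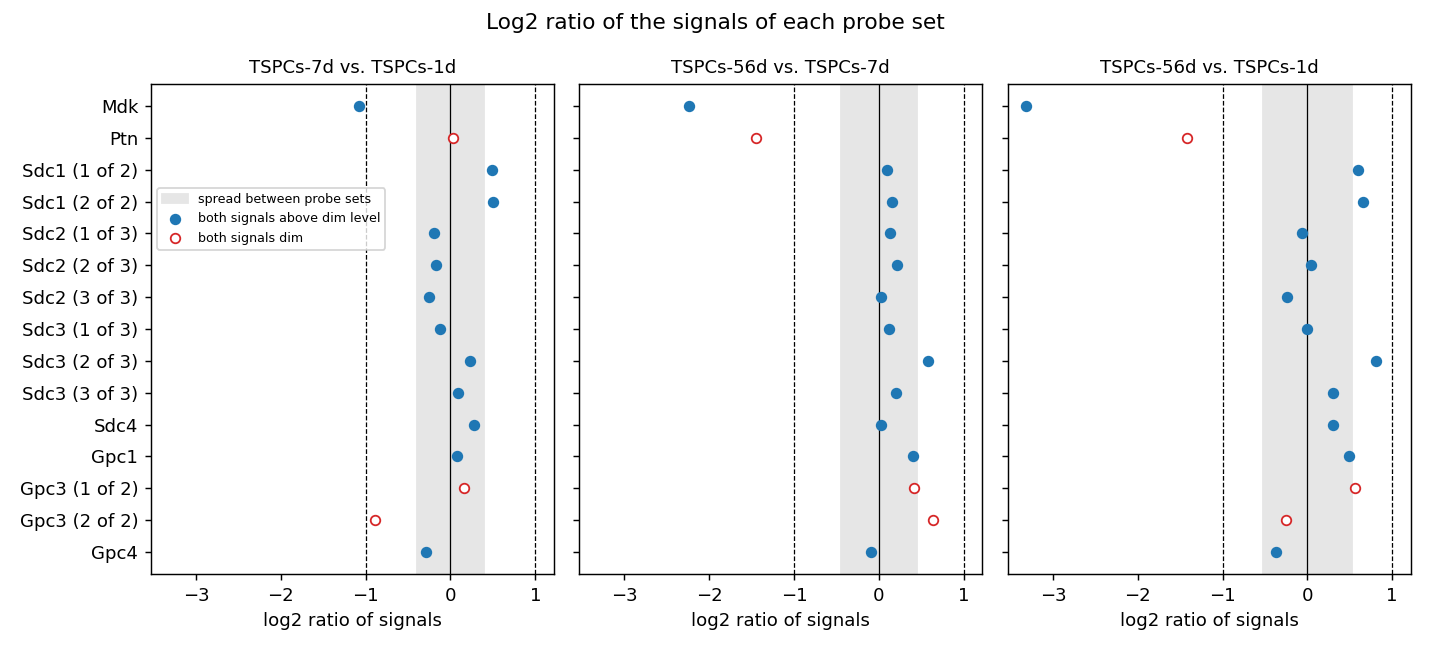
Log2 ratio of signals (horizontal) of the 15 probe sets of the 9 genes (rows, further probe sets of a gene by falling signal) in 3 comparisons, with filled points where both signals were above the dim level, open red points where both were dim, dashed lines at 2-fold and a grey band for the spread between probe sets of a gene. Only *Mdk* has filled points beyond the dashed lines, in all 3 comparisons.

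Of genes outside the set, those nearest to *Mdk* in pattern were *Plagl1*, *Etl4* and *Car3*. Likeness was the Euclidean distance between log2 signals centred on their mean over the 3 arrays, over 9381 other genes above the median of mean signal. *Plagl1*, an imprinted zinc finger transcription factor gene, was the nearest at a distance of 0.060, with signals of 615 at 1 day, 305 at 7 days and 65.3 at 56 days. *Etl4* (558, 289.8 and 57.9) followed at 0.096 and the carbonic anhydrase gene *Car3* (5356, 2536 and 463) at 0.18. For *Sdc1*, which had the next largest range above that median when each gene was taken through its brightest probe set, the nearest was *Sh3pxd2b*, which encodes an adaptor protein of podosomes, with 156.5, 221 and 236 (0.0050). *Zbed3* (264, 374 and 395) and the peroxiredoxin gene *Prdx6* (1668, 2314 and 2484) were next, at 0.015 each. Over 3 arrays many genes can share a pattern, and these distances describe these arrays alone.

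Related genes were counted in 9 lists, each gene through its brightest probe set on average. The lists cover heparan sulfate synthesis and editing, other proteoglycans, receptors of the ligands, release of ectodomains and cytoplasmic partners of syndecans. Of 80 genes listed, 69 were measured and 8 of those were dim on all 3 arrays. In TSPCs-7d vs. TSPCs-1d, 0 were more than 2-fold higher and 1 was lower, the dim *Spock3* (12.6 at 1 day, 5.59 at 7 days and 8.60 at 56 days), a gene of a secreted proteoglycan of the testican family, beside 1.87% and 1.08% of all 14217 genes. In TSPCs-56d vs. TSPCs-7d, 1 was higher and 0 were lower, beside 1.72% and 2.10% of all genes. In TSPCs-56d vs. TSPCs-1d, 4 were higher and 0 lower, beside 2.00% and 1.77% of all genes. Of these, *Sulf1* passed the cutoff only in its brighter probe set. The median log2 ratio of the 69 genes was 0.03, 0.11 and 0.10, and that of all genes 0.01, 0.05 and 0.06. Genes of these lists that are named below without passing the cutoff were chosen after their values were seen, except those of the other glypicans and of chain editing, which were named whole.

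**Figure D3:**
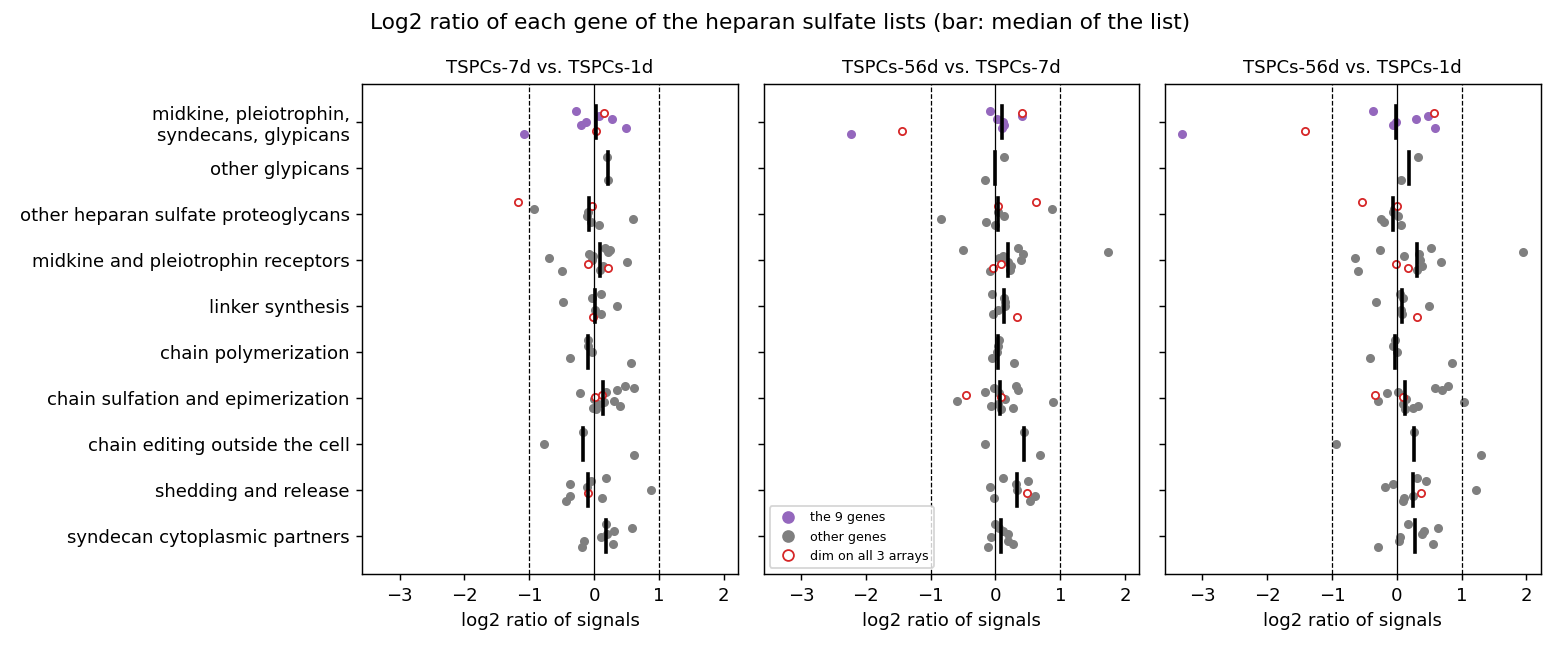
Log2 ratio of signals (horizontal) of each gene, through its brightest probe set, in 3 comparisons. The set of 9 genes is purple, and 9 lists of genes for heparan sulfate, ligand receptors, shedding and syndecan partners are grey. Black bars mark the median of each list, open red points the genes dim on all 3 arrays and dashed lines 2-fold. *Mdk* is the filled point farthest to the left in each panel, and 4 genes of the lists lie to the right of 2-fold in TSPCs-56d vs. TSPCs-1d.

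Of 13 measured receptor genes for midkine and pleiotrophin, *Itgb3*, which encodes the beta-3 integrin subunit, was the 1 past 2-fold, higher in TSPCs-56d. Its signals were 173 at 1 day, 201 at 7 days and 669 at 56 days. This is 3.33-fold higher at 56 days than at 7 days and 3.87-fold higher than in TSPCs-1d, from 1 probe set. Its partner subunit gene *Itgav* had 1690.3, 1603 and 2149.67, a ratio of 1.27 in TSPCs-56d vs. TSPCs-1d. The classical receptor genes were weak. *Ptprz1* had signals of 71.1, 50.2 and 47.2 in the order of age, the last of them dim, and *Alk* had 79.2, 84.8 and 98.7. The endocytic receptor gene *Lrp1* was bright at 1708, 1885 and 2231. The coreceptor gene *Nrp1* had 909, 1287 and 1465, a ratio of 1.61 in TSPCs-56d vs. TSPCs-1d. Other genes of the list were lower in that comparison. *Itga6*, an integrin subunit gene, had 1754, 1079 and 1122 (a ratio of 0.64), and *Ncl* had 2901, 3426 and 2418 (0.83). The median log2 ratio of the receptor list was 0.10 in TSPCs-7d vs. TSPCs-1d, 0.19 in TSPCs-56d vs. TSPCs-7d and 0.32 in TSPCs-56d vs. TSPCs-1d.

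The enzymes that set the number of 6-O-sulfate groups on heparan sulfate differed by up to 2.47-fold in the brightest probe set of each gene. *Hs6st1*, which adds these groups, had signals of 389 at 1 day, 433 at 7 days and 799.6 at 56 days. It was thus 2.05-fold higher at 56 days than at 1 day, from 1 probe set. This ratio lies close to the cutoff of 2, and alternative scalings were not applied to genes of the lists. *Hs6st2*, with the same activity, had 459, 568 and 377. *Sulf1* and *Sulf2* encode endosulfatases that remove 6-O-sulfate outside the cell. *Sulf1* had 231, 356 and 571, or 2.47-fold higher at 56 days than at 1 day, although its weaker probe set had 128, 151 and 175, or 1.37-fold higher. *Sulf2* had 716, 417 and 375, a ratio of 0.52 in TSPCs-56d vs. TSPCs-1d. The heparanase gene *Hpse* was weak, with 59.7, 52.9 and 72.0.

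Genes of chain polymerization and of the linker that joins the chain to the protein had 0 members past 2-fold in any comparison, of 5 and 7 measured. *Ext1* and *Ext2*, whose products form the polymerase, had ratios on opposite sides of 1 in TSPCs-56d vs. TSPCs-1d. *Ext1* had signals of 916 at 1 day, 1357.5 at 7 days and 1652 at 56 days (a ratio of 1.80), and *Ext2* had 1406, 1092 and 1056 (0.75). *Ugdh*, whose enzyme makes the UDP-glucuronic acid that the chains are built from, had 1745, 2422 and 3002, a ratio of 1.72. Of the 14 measured genes of sulfation, epimerization and precursor supply, *Hs6st1* was the 1 past 2-fold.

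Among 9 genes for proteases and lipases that can release the ectodomains of syndecans or glypicans, *Mmp9*, the gene of gelatinase B, was the 1 past 2-fold, with signals of 111 at 1 day, 205 at 7 days and 258 at 56 days. It was 2.33-fold higher at 56 days than at 1 day, and 2.38-fold in its other probe set. That probe set was weaker, with 57.9, 87.4 and 138 in the order of age, the first of them near the dim level. The sheddase gene *Adam17* was level, at 1060.0, 1155 and 1142. The remaining glypican genes measured, *Gpc2* (101, 118 and 105) and *Gpc6* (899.8, 1029 and 1132.5), had ratios of 1.04 and 1.26 in TSPCs-56d vs. TSPCs-1d, and the 3 weaker probe sets of *Gpc6* had 1.17, 1.29 and 1.20. Of 8 other proteoglycan genes with heparan sulfate and 8 cytoplasmic partners of syndecans, 0 passed 2-fold in TSPCs-56d vs. TSPCs-1d. The bright syntenin gene *Sdcbp*, whose protein binds the tail of syndecans, had 8363, 7353 and 6805.

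**Figure D4:**
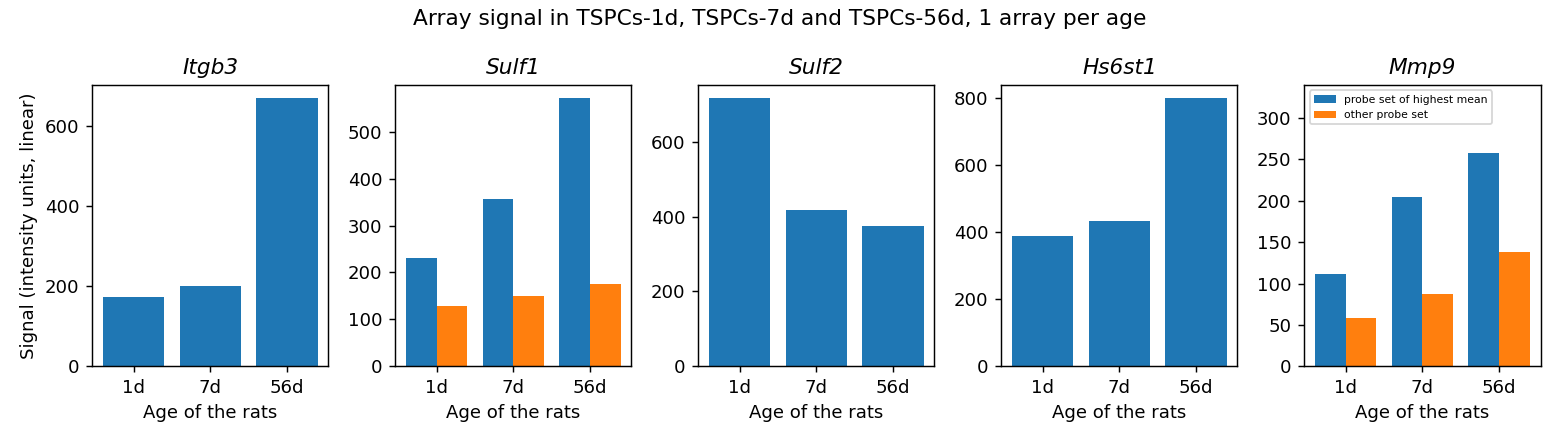
Array signal (intensity units, linear axis from 0, a scale for each panel) of *Itgb3*, *Sulf1*, *Sulf2*, *Hs6st1* and *Mmp9* at 1, 7 and 56 days, 1 bar per array, with a second probe set in orange where there is one. All but *Sulf2* are highest in TSPCs-56d, where *Itgb3* reaches 669 and *Sulf1* 571, and *Sulf2* is highest in TSPCs-1d (716).

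Of 11 measured tendon cell genes, 9 were above the dim level on every array, and the list summed to 62047, 65536 and 70207 in the order of age. Such a sum follows the brightest probe sets, here the level collagen genes *Col1a1*, *Col1a2* and *Col3a1*, each between 14286 and 19315. *Scx*, a transcription factor gene of the tendon lineage, had signals of 2255 at 1 day, 2578 at 7 days and 2569 at 56 days. *Tnmd*, a marker of mature tendon cells, was the 1 tendon gene more than 2-fold lower in TSPCs-56d vs. TSPCs-1d, as *Mdk* was, and had 543, 351 and 158. Another 4 were more than 2-fold higher in that comparison. They were *Dcn* (22.4, 49.4 and 607), *Lum* (22.9, 22.4 and 1021), *Thbs4* (76.5, 339.6 and 348) and *Tnc* (5280.4, 7302.5 and 11185). *Dcn* and *Lum* were dim in TSPCs-1d, and *Lum* also in TSPCs-7d, where *Dcn* was just above the dim level. *Fmod* had 271, 774 and 408. Of the markers of other cells, those of cartilage had a summed signal of 11057, 12240 and 4898 over 5 measured genes, most of it from *Acan* (8588, 8224 and 2874) and *Col11a1* (2256.5, 3814 and 1800), with 1 gene, *Col9a1*, dim on all 3 arrays and *Col2a1* at 66.9, 61.6 and 72.4. The summed signal of muscle markers was 218, 239.9 and 273 (4 genes, 1 dim throughout), that of endothelial markers 268, 278 and 292 (6 genes, 4 dim), that of leukocyte markers 626, 587 and 708 (6 genes, 2 dim) and that of epithelial markers 281, 317 and 371 (6 genes, 3 dim). Schwann cell markers summed to 737, 762 and 1272 (5 genes, 2 dim), and *S100b* made most of the difference (529.8, 535 and 1000.4). The 6 genes of cycling cells summed to 3705, 9539 and 3452, highest in TSPCs-7d. The part of any of these cells or of cycling in the differences of the 9 genes was not tested.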

How the data were processed

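Total RNA of 3 cultures, 1 per age, was hybridized to Affymetrix arrays of the rat genome. For summarizing probes into signals and normalizing the arrays, the authors name MAS5 together with RMA in their methods, but only MAS5 in the submitters' processing notes. How both were combined is not given in the sources used here. The authors deposited intensity values on a linear scale, 1 per array for each of 31042 probe sets, none below 1. Raw probe intensities and detection calls were not analysed here, and background handling by the authors can alter ratios of weak signals.

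Signals were used as deposited, since array medians were 107, 108 and 114. The signal of the older culture was divided by that of the younger, and the methods' cutoff of 2 was kept. Each group had 1 array, so no test was made and the number of arrays limits the precision. The platform table gave 1 gene to 20826 probe sets, several to 436 and none to 9780, and of the first, 20758 had a gene ID in the RefSeq table of rat assembly GRCr8, used for names only. A gene of a list was represented by its probe set of the highest mean signal.

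The members, lists and rule for named genes were chosen with earlier results of these data known. Named were all members with every probe set, the 3 genes nearest in pattern to each of the 2 members of the largest range above the median of mean signal, and per list up to 4 genes past the cutoff, or all genes of a list of up to 3. Other genes of the lists that the report names were added after their values were seen. Lists were 9 for the pathway and 8 for cell markers. The last paragraph of the report shows all marker lists. Alternatives were division by array medians, quantile normalization, loess centring (span 0.2), floors at the 25th percentile (48.9) and the median (110.1) of all signals, a pseudocount of 32, a filter on mean signal, cutoffs of 1.5 and 3, no shared probe sets, and the mean over a gene's probe sets. The calculation was tested on simulated data, with all 200 planted changes of TSPCs-7d recovered after division by array medians. These were 3-fold changes in probe sets above the median, with less noise than the spread between probe sets. Their recovery was thus fixed in advance, and it checks the code but not the sensitivity on these arrays. Python 3.11.15, numpy 2.4.6, pandas 2.3.3, statsmodels 0.14.6 and matplotlib 3.10.9 were used.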

Additional observations from a re-analysis of the deposited data

How the results depend on the processing

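*Mdk* stayed more than 2-fold lower in all 3 comparisons under each alternative scaling, floor and pseudocount, with ratios between 0.468 and 0.497 in TSPCs-7d vs. TSPCs-1d. With signals under the median raised to it, its ratio was 0.347 in TSPCs-56d vs. TSPCs-7d and 0.164 in TSPCs-56d vs. TSPCs-1d, because the signal of 67.3 was itself raised. Of 189 member ratios recomputed, 178 moved by less than the spread between probe sets, 11 moved by more and 0 of those past 2-fold turned direction. Of the 11, 9 belonged to *Ptn* or *Gpc3*, which were dim on all arrays. Many of the 178 could not move, so their number is no measure of robustness. A floor leaves signals above it unchanged, and the mean over probe sets changes nothing for the 5 genes with 1 probe set.

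The number of probe sets past the cutoff was unchanged by the alternative scalings. The number lower in TSPCs-56d was 1 in place of 2, against TSPCs-7d and against TSPCs-1d alike, with either floor, with the pseudocount, with the filter on mean signal and at a 3-fold cutoff, since *Ptn* no longer counted. At 3-fold, 0 were lower in TSPCs-7d vs. TSPCs-1d. At 1.5-fold, 2 were lower in TSPCs-7d vs. TSPCs-1d, beside 3.44% of all probe sets with a single gene. Higher at this cutoff were 1 in TSPCs-56d vs. TSPCs-7d, beside 5.09%, and 3 in TSPCs-56d vs. TSPCs-1d, beside 6.38%. The second lower one in TSPCs-7d vs. TSPCs-1d and the higher one in TSPCs-56d vs. TSPCs-7d were the dim, weaker probe set of *Gpc3*. No probe set of the set carries the suffix of a shared probe set. No paired analysis was possible because each age has 1 array. Signals near or under the dim level limit what can be read for *Ptn*, *Gpc3*, *Ptprz1* and *Spock3*.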
